A study of Mus musculus with 4 samples.

Results

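The transcripts of 8 genes that mark cerebellar inhibitory interneurons were examined in granule-cell-enriched (GCE) tissue of WT and *Kdm3b*+/- mice. The genes were *Gad1*, *Gad2*, *Slc32a1*, *Slc6a5*, *Pvalb*, *Lgi2*, *Kit* and *Sorcs3*, chosen by name. Each was found by its NCBI Gene identifier as a single entry among the 24532 identifiers that every library lists. GCE tissue was cut by hand from slices of the vermis under a stereomicroscope, away from Purkinje-cell-enriched tissue, and its RNA was sequenced in bulk. The labels name the tissue only as cerebellum. The WT group held 2 adult male WT littermates. The *Kdm3b*+/- group held 2 adult male mice heterozygous for a gene-trap insertion in *Kdm3b*, which encodes a demethylase of histone H3 lysine 9. All 4 mice came from the same stock, in which the trap allele of a single embryonic stem cell line was backcrossed to C57Bl/6N and then crossed to C57Bl/6J, and the heterozygous animals carry the insertion in all cells and not in interneurons alone. Each library came from 1 mouse, so p-values measure the spread between these mice.

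Inhibitory interneurons of the cerebellar cortex release GABA, and part of them also glycine. GABA is made from glutamate by the glutamate decarboxylases encoded by *Gad1* and *Gad2*, and the vesicular transporter encoded by *Slc32a1* loads both GABA and glycine into synaptic vesicles. Stellate and basket cells of the molecular layer inhibit Purkinje cells, whereas Golgi cells of the granular layer inhibit granule cells. Purkinje cells are GABAergic themselves and express *Gad1*, *Gad2*, *Slc32a1* and *Pvalb*, so that a bulk value of these genes is a sum over both kinds of neuron. In bulk tissue, fewer cells of a type and less RNA per cell cannot be told apart.

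The promoters of *Gad1*, *Gad2* and *Kit* are shown because these were the genes of the set whose TPM did not overlap between the genotypes. All 8 genes matched the RefSeq promoter table, and each sequence below is the 250 bases before the transcription start in GRCm38.p6, on the forward strand, 5′ to 3′. The RefSeq gene start relative to the start used here was -826 bases for *Gad1*, -1312 for *Gad2* and 0 for *Kit*. The *Gad1* and *Gad2* windows therefore lie inside the RefSeq gene spans. Capitals mark every match, on either strand, to the searched motifs, and no matches overlapped in these windows. The TATA box was searched as TATAAA. The CCAAT box was searched by the letters of its name and the GC box as GGGCGG. An E-box was any stretch that read CANNTG.
Gad1: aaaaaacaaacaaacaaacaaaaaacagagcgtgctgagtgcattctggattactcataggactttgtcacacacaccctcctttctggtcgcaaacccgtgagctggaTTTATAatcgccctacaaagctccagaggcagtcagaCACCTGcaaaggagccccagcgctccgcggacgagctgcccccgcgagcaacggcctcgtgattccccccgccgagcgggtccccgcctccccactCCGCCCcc
Gad2: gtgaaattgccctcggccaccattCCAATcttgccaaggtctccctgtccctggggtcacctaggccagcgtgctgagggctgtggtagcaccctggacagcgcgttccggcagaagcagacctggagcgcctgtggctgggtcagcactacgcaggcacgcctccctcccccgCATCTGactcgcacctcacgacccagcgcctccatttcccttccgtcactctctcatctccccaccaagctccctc
Kit: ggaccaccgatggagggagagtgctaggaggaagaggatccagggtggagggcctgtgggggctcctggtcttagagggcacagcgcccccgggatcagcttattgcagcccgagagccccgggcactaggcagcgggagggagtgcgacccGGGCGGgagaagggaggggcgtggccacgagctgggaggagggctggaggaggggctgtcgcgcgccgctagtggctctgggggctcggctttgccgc
The *Gad1* window, chr2:70561879-70562128, held 17 CpG dinucleotides at 58.0% GC, with a TATA box match (TTTATA) 141 bases, an E-box (CACCTG) 104 bases and a GC box (CCGCCC) 8 bases before the start. In the *Gad2* window, chr2:22622077-22622326, there were 13 CpG at 64.0% GC, with a CCAAT box 226 bases and an E-box (CATCTG) 76 bases before the start. The *Kit* window, chr5:75574737-75574986, which belongs to the first of 2 listed starts, held 17 CpG at 70.8% GC and a GC box (GGGCGG) 98 bases before the start. None of the searched motifs occurred in all 3 windows. Among 32851 windows of the same length, from 27025 genes, 12.4% held the TATA box, 33.8% the CCAAT box, 32.7% the GC box and 66.2% the E-box, and the median window had 6 CpG and 52.4% GC. A match is a description of the letters and was not tested as a binding site.

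The libraries held an estimated 4.92 to 6.69 gigabases of aligned sequence, and 17572 to 17991 identifiers had a TPM above 0. The gigabases were estimated from the most common ratio of deposited coverage to FPKM. TPM is a level per transcript length, scaled to a fixed total within each library. *Kdm3b* itself was at 9.10 and 11.0 TPM in WT and at 8.30 and 7.90 TPM in *Kdm3b*+/-, lower in both heterozygous mice. Genotypes were compared with limma on log2(TPM + 1) over the 13652 genes whose TPM averaged 1 or more, and a gene was called at a Benjamini-Hochberg adjusted p below 0.05 with a fold change above 1.2. By this rule 63 genes were called, 0.461% of those tested, with 16 higher and 47 lower in *Kdm3b*+/-. The count moved to 21 without WT mouse 1, 28 without WT mouse 2, 121 without *Kdm3b*+/- mouse 1 and 188 without *Kdm3b*+/- mouse 2. WT mouse 1 stood apart in Purkinje cell markers, which summed to 1772 TPM against 839 TPM in WT mouse 2.

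None of the 8 genes was called, against 0.461% of all tested genes (0.344% lower and 0.117% higher in *Kdm3b*+/-). *Gad1*, *Gad2* and *Kit* were lower in both *Kdm3b*+/- mice than in both WT mice, whereas *Slc32a1*, *Slc6a5*, *Pvalb*, *Lgi2* and *Sorcs3* overlapped between the genotypes. Such a separation downwards was found in 3 of the 8 genes and in 32% of all tested genes, and a separation in either direction in 51.3% of them. Of the 6 genes with enough signal to be tested, *Gad1* and *Kit* had an unadjusted limma p below 0.05, as had 17% of all tested genes. Of the 6, the log2 fold change was below 0 in 5 and at 0.00 in *Pvalb*. The median log2 fold change of the 6 tested genes was -0.26, beside -0.07 over all tested genes. Without WT mouse 1 it was -0.086, beside -0.098 over all tested genes, so that the set was then not below the other genes. It was -0.55 without WT mouse 2 and -0.16 without *Kdm3b*+/- mouse 1, beside -0.037 and -0.046 over all tested genes, and -0.15 with quantile normalization.

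**Figure D1:**
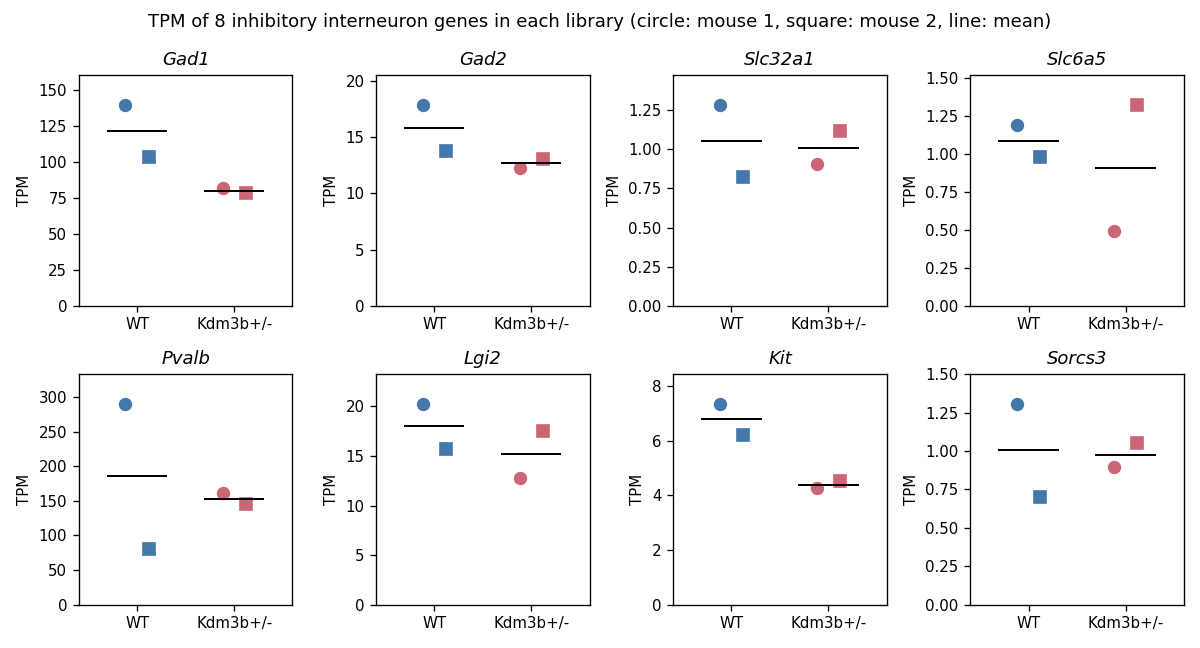
TPM (vertical axes, each starting at 0) of the 8 genes in each library; circles are mouse 1 and squares mouse 2 of a genotype, and lines are group means (n = 2). Both *Kdm3b*+/- points lie under both WT points for *Gad1*, *Gad2* and *Kit*, and WT mouse 1 is the highest point for 7 of 8 genes.

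*Gad1*, the decarboxylase that makes most of the GABA in the brain, was at lower levels in both *Kdm3b*+/- mice. It lies on chromosome 2 from 70562129 to 70602014 on the forward strand (gene 14415), and its longest coding transcript has 17 exons and 3355 bases. Its TPM was 140 and 104 in WT and 81.6 and 78.5 in *Kdm3b*+/-. Both heterozygous mice were under both WT mice, and the WT mice lay further from each other than the heterozygous mice did. The mean was 122 ± 25.5 TPM (SD, n = 2) in WT and 80.1 ± 2.18 TPM (SD, n = 2) in *Kdm3b*+/-, a difference of -34.2%. The difference in log2(TPM + 1), given below as the log2 fold change, was -0.58 (SE 0.163, 95% interval -0.95 to -0.21), with an unadjusted p of 0.0059 and an adjusted p of 0.168 by limma. The fold change was -0.37 without WT mouse 1 and -0.80 without WT mouse 2, and it stayed below 0 in every alternative run. With the replicate number as a block, the adjusted p of *Gad1* was 0.0369, which passed the threshold. In that fit 4.39% of all tested genes were called and 3.13% were called lower, and mice that share a number are not the same animal. With the block after length and GC correction the log2 fold change was -0.46 and the adjusted p was 0.174, and the call was lost. The antisense gene *Gad1os* overlaps the start of *Gad1*, at 0.215 to 0.422 TPM, and strandedness was not given in the sources used here, so reads of the overlap cannot be assigned to either gene with certainty.

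*Gad2*, whose decarboxylase resides at nerve terminals, was lower by less. The gene (14417) lies on chromosome 2 from 22622327 to 22693877 on the forward strand, with 16 exons and 5744 bases in its longest coding transcript. TPM was 17.9 and 13.8 in WT and 12.2 and 13.1 in *Kdm3b*+/-. The groups did not overlap, but WT mouse 2 stood closer to the heterozygous mice than to WT mouse 1. Means were 15.8 ± 2.92 and 12.7 ± 0.599 TPM (SD, n = 2 each). The log2 fold change was -0.29 (SE 0.173, 95% interval -0.68 to 0.10, limma adjusted p = 0.414), and it was -0.11 without WT mouse 1 and -0.47 without WT mouse 2.

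The ratio of *Gad1* to *Gad2* compares both decarboxylase transcripts within a library, so that any factor common to both cancels. It was 7.80 and 7.53 in WT and 6.66 and 5.995 in *Kdm3b*+/-. Both heterozygous mice had the smaller ratio and the groups did not overlap. The means were 7.67 ± 0.196 and 6.33 ± 0.472 (SD, n = 2 each), with an exact two-sided permutation p of 0.333, the smallest that 4 libraries allow. The log2 difference of the ratio was -0.28, and leaving out any 1 library gave -0.35 to -0.20.

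*Slc32a1*, the vesicular transporter downstream of both decarboxylases, was close to the minimum TPM for testing. The gene (22348) lies on chromosome 2 from 158610758 to 158615747 on the forward strand, and its longest coding transcript has 2 exons and 2797 bases. Its TPM was 1.28 and 0.825 in WT and 0.904 and 1.12 in *Kdm3b*+/-, so both heterozygous values fell between the WT values. The log2 fold change was -0.02 (SE 0.212, 95% interval -0.50 to 0.45, limma adjusted p = 0.965). Mean coverage was 2.04 to 3.42 reads per base. The sign turned with a median-ratio scaling (0.010) and with a length and GC correction (0.17).

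*Slc6a5*, the plasma membrane glycine transporter of glycinergic neurons such as Golgi cells, had a mean of 0.996 TPM over the 4 libraries and was just under the minimum for testing. It lies on chromosome 7 from 49910299 to 49959493 on the forward strand (gene 104245). TPM was 1.19 and 0.979 in WT and 0.490 and 1.32 in *Kdm3b*+/-. The lowest and the highest value both came from heterozygous mice, at 1.30 and 4.02 reads per base. Under a lower minimum of 0.5 TPM, added after seeing the data, the log2 fold change was -0.16 (limma adjusted p = 0.769).

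*Pvalb* encodes parvalbumin, a calcium-binding protein of stellate, basket and Purkinje cells, and was the most abundant of the 8 transcripts. The gene (19293) lies on chromosome 15 from 78191112 to 78206400 on the reverse strand, with 4 exons and 977 bases in its longest coding transcript. TPM was 290 and 80.2 in WT and 161 and 145 in *Kdm3b*+/-. Both heterozygous mice lay between the WT mice, which differed more from each other than in any other gene of the set. The means were 185 ± 149 and 153 ± 11.0 TPM (SD, n = 2 each). The log2 fold change was 0.00 (SE 0.451, 95% interval -1.02 to 1.02, limma adjusted p = 0.999). It was 0.92 without WT mouse 1 (adjusted p = 0.0723) and -0.92 without WT mouse 2 (adjusted p = 0.084), so the direction depended on which WT mouse was kept.

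*Kit*, a receptor tyrosine kinase found on molecular layer interneurons, was the other gene with an unadjusted p below 0.05. It lies on chromosome 5 from 75574987 to 75656721 on the forward strand (gene 16590), with 21 exons and 5241 bases in its longest coding transcript. Its TPM was 7.36 and 6.23 in WT and 4.27 and 4.53 in *Kdm3b*+/-. Both heterozygous mice were under both WT mice, with a gap between the groups that exceeded the distance within either. The means were 6.80 ± 0.803 and 4.40 ± 0.183 TPM (SD, n = 2 each), a difference of -35.3%. The log2 fold change was -0.53 (SE 0.173, 95% interval -0.92 to -0.14), with an unadjusted p of 0.0137 and an adjusted p of 0.203 by limma. Leaving out any 1 library gave -0.63 to -0.42. Mast cells and melanocytes also carry this receptor. Of 6 mast cell genes 3 were at 0 in all libraries, and the 6 summed to 0.111 and 0 TPM in WT and 0 and 0.0606 TPM in *Kdm3b*+/-. The 6 melanocyte genes summed to 3.17 and 3.50 TPM in WT and 3.56 and 7.10 TPM in *Kdm3b*+/-. All 6 mast cell genes and 5 of the 6 melanocyte genes were under the minimum for testing. The part of these cells in the *Kit* values was not tested.

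*Lgi2* encodes a secreted leucine-rich repeat protein. It lies on chromosome 5 from 52533517 to 52566306 on the reverse strand (gene 246316). TPM was 20.3 and 15.7 in WT and 12.8 and 17.5 in *Kdm3b*+/-. The lowest value was from a heterozygous mouse and the highest from a WT mouse, with the remaining values interleaved. The log2 fold change was -0.24 (SE 0.196, 95% interval -0.68 to 0.21, limma adjusted p = 0.559). It was -0.060 without WT mouse 1, -0.41 without WT mouse 2, -0.024 without *Kdm3b*+/- mouse 1 and -0.45 without *Kdm3b*+/- mouse 2.

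*Sorcs3*, a sorting receptor of the VPS10 domain family, was the least abundant of the 8 genes, at a mean of 0.989 TPM, and was also under the minimum for testing. The gene (66673) lies on chromosome 19 from 48206025 to 48805505 on the forward strand. TPM was 1.31 and 0.699 in WT and 0.897 and 1.05 in *Kdm3b*+/-. As in *Slc32a1* and *Pvalb*, both heterozygous mice lay between the WT mice. With the lower minimum of 0.5 TPM the log2 fold change was -0.01 (limma adjusted p = 0.994).

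**Figure D2:**
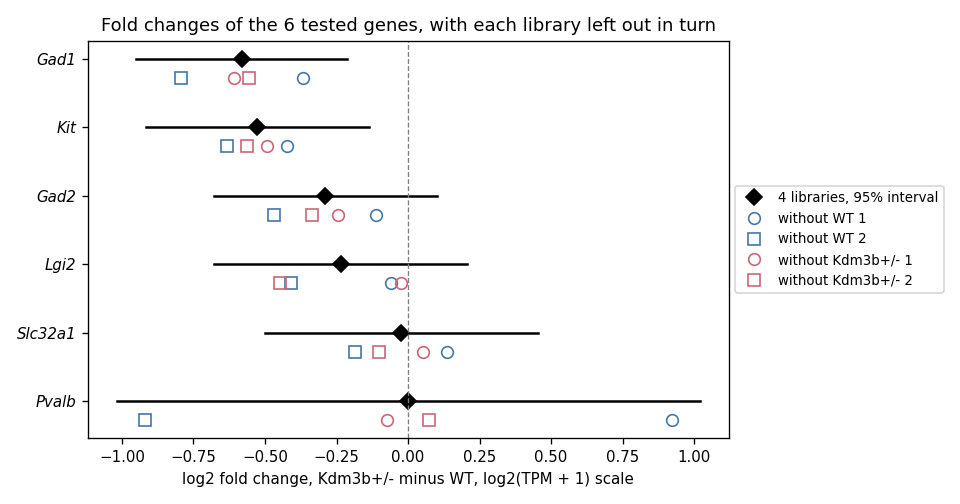
Horizontal axis: log2 fold change, *Kdm3b*+/- minus WT, in log2(TPM + 1), of the 6 tested genes; diamonds and bars are the estimate and 95% interval of all 4 libraries, and open symbols the estimate with 1 library left out. All symbols of *Gad1* and *Kit* lie left of 0, whereas those of *Pvalb* reach from -0.92 without WT mouse 2 to 0.92 without WT mouse 1.

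As TPM is per transcript length, levels can also be set against each other. The mean over 4 libraries was 169 TPM for *Pvalb* and 101 TPM for *Gad1*, and *Pvalb* was the higher in 3 of 4 libraries. *Lgi2* followed at 16.6 TPM, *Gad2* at 14.3 TPM and *Kit* at 5.60 TPM. *Lgi2* exceeded *Gad2* in 4 of 4 libraries, although their ranges overlapped. The ranges of *Gad1* and *Lgi2*, of *Gad2* and *Kit*, and of *Kit* and *Slc32a1* did not overlap. *Slc32a1* (1.03 TPM), *Slc6a5* and *Sorcs3* did not differ beyond their spread. *Gad1* and *Pvalb* together took 82.8% to 89.7% of the summed TPM of the 8 genes, so a sum is mostly those 2 transcripts.

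That sum was 479 and 222 TPM in WT and 274 and 262 TPM in *Kdm3b*+/-. Both heterozygous mice again lay between the WT mice (exact two-sided permutation p = 1). Its log2 difference was -0.28, and it turned from 0.27 without WT mouse 1 to -0.84 without WT mouse 2. Without *Pvalb* the sum was 189 and 142 TPM in WT and 113 and 117 TPM in *Kdm3b*+/-, and the groups no longer overlapped (exact p = 0.333, the smallest possible). *Gad1*, at 140 and 104 TPM in WT and 81.6 and 78.5 TPM in *Kdm3b*+/-, made up most of that sum. The separation is thus largely that of *Gad1* again and not a result about the set. *Slc6a5*, *Lgi2*, *Kit* and *Sorcs3*, taken apart from the genes that Purkinje cells share, summed to 30.1 and 23.6 TPM in WT and 18.5 and 24.4 TPM in *Kdm3b*+/-, with 1 heterozygous mouse between the WT mice (exact p = 0.667).

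WT mouse 1 was the highest library for 7 of the 8 genes, the exception being *Slc6a5*. The 16 Purkinje cell markers summed to 1772 and 839 TPM in WT and to 1009 and 831 TPM in *Kdm3b*+/-, and 14 of the 16 were highest in WT mouse 1. WT mouse 1 exceeded WT mouse 2 by 2.11 times in these markers. All 13 tested Purkinje markers had a log2 fold change below 0, and none was called. In 7 of the 13, both heterozygous mice were under both WT mice, beside 32% of all tested genes. The median log2 fold change of the 13 was -0.49, and it moved to -0.13 without WT mouse 1 and -0.86 without WT mouse 2. *Pcp4*, one of the most abundant of them, was at 403 and 155 TPM in WT and 254 and 196 TPM in *Kdm3b*+/-. The 8 markers of excitatory neurons of the cerebellar nuclei summed to 739 and 352 TPM in WT and 395 and 549 TPM in *Kdm3b*+/-, and 6 of the 8 were highest in WT mouse 1. Granule cell markers, in contrast, summed to 5737 and 6831 TPM in WT and 5965 and 6542 TPM in *Kdm3b*+/-, with WT mouse 1 the lowest. Divided by the summed Purkinje markers of the same library, *Gad1* was at 0.0788 and 0.124 in WT and 0.0809 and 0.0945 in *Kdm3b*+/-. *Kit* was at 0.00416 and 0.00743 in WT and 0.00423 and 0.00545 in *Kdm3b*+/-. For *Pvalb* it was 0.164 and 0.0956 in WT and 0.159 and 0.175 in *Kdm3b*+/-. The genotypes overlapped in each of these ratios. What part of the values of *Gad1*, *Gad2* and *Pvalb* came from Purkinje cells in the dissected tissue was not tested.

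**Figure D3:**
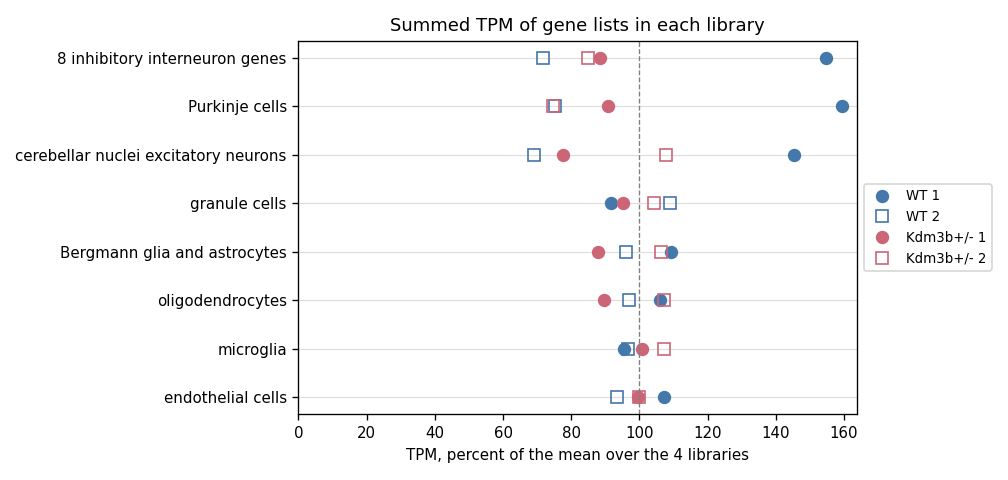
Summed TPM of gene lists in each library, as percent of the mean over the 4 libraries (horizontal axis from 0). WT mouse 1 lies far above the other libraries for the 8 inhibitory interneuron genes, the Purkinje markers and the nuclear neuron markers, but not for granule cell or glial markers.

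Downstream of release, GABA and glycine are taken up by plasma membrane transporters and GABA is broken down in the mitochondria. Of 15 genes of transport and breakdown given here, all tested, none was called, 2 were lower and none higher at an unadjusted limma p below 0.05, and 11 had a fold change below 0 (median log2 fold change -0.15, beside -0.07 over all tested genes, and -0.23 without WT mouse 1). *Abat*, the GABA transaminase, was at 108 and 126 TPM in WT and 64.8 and 80.9 TPM in *Kdm3b*+/- (log2 fold change -0.68, limma adjusted p = 0.116). *Slc6a13*, a GABA transporter found in the meninges, was at 8.66 and 7.97 TPM in WT and 3.29 and 6.07 TPM in *Kdm3b*+/- (-0.76, adjusted p = 0.188). Neither passed the threshold. Both were among the 4 of the 15 that were lower in both heterozygous mice than in both WT mice, beside 32% of all tested genes. *Abat* passed in 1 of 13 alternative fits with all 4 libraries, that with the replicate block (limma adjusted p = 0.0164). In that fit 4.39% of all tested genes were called. The meningeal fibroblast genes, 8 in all and with *Slc6a13* among them, summed to 67.0 and 60.9 TPM in WT and 37.6 and 40.9 TPM in *Kdm3b*+/-, and the part of the meninges in the *Slc6a13* values was not tested. The largest increases of the group, in *Aldh5a1* (0.18, adjusted p = 0.644) and *Slc38a1* (0.17, adjusted p = 0.577), did not pass either.

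**Figure D4:**
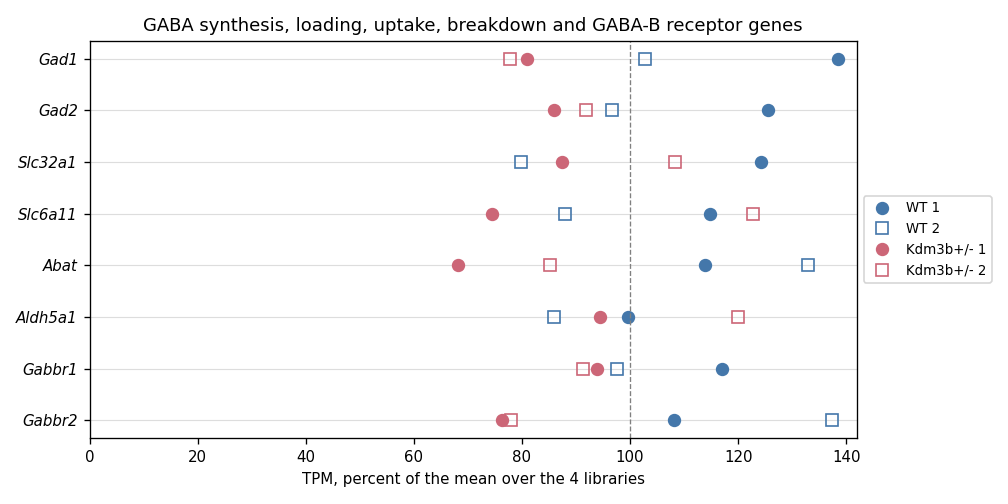
TPM of genes of GABA synthesis (*Gad1*, *Gad2*), vesicle loading (*Slc32a1*), uptake (*Slc6a11*), breakdown (*Abat*, *Aldh5a1*) and the GABA-B receptor (*Gabbr1*, *Gabbr2*) in each library, as percent of the gene's mean over the 4 libraries (horizontal axis from 0). Both *Kdm3b*+/- mice lie under both WT mice for *Gad1*, *Gad2*, *Abat*, *Gabbr1* and *Gabbr2*, none of which was called. Such a separation downwards was found in 32% of all tested genes. The genes drawn are a selection, and *Slc38a1* and *Nlgn2*, which separated upwards, are not drawn.

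On the receiving side, 15 of 18 genes of inhibitory receptors and their postsynaptic scaffold were tested and none was called, with 2 lower and 1 higher at an unadjusted limma p below 0.05 (median -0.14). Of the 15, 8 separated downwards and 1 upwards between the genotypes, beside 32% and 19.2% of all tested genes. *Gabbr2*, a GABA-B receptor subunit, was at 36.4 and 46.2 TPM in WT and 25.7 and 26.2 TPM in *Kdm3b*+/-, lower in both heterozygous mice (-0.64, adjusted p = 0.141). It passed in 1 of 13 alternative fits with all 4 libraries, that with the replicate block (limma adjusted p = 0.0339), in which 4.39% of all tested genes were called. *Nlgn2*, the adhesion molecule of inhibitory synapses, was at 7.38 and 7.47 TPM in WT and 10.1 and 10.7 TPM in *Kdm3b*+/-, higher in both (0.44, adjusted p = 0.231). *Clptm1*, of the same list, was at 115 and 132 TPM in WT and 93.5 and 104 TPM in *Kdm3b*+/- (-0.32, adjusted p = 0.294). *Gabra6*, the receptor subunit of granule cells, was at 984 and 1097 TPM in WT and 1200 and 1032 TPM in *Kdm3b*+/-, and the groups overlapped (0.10, adjusted p = 0.713).

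Of 14 transcription factors of cerebellar inhibitory lineages, 6 were tested and none was called, with 2 lower at an unadjusted limma p below 0.05 and a median log2 fold change of -0.33 (-0.17 without WT mouse 1). *Lhx1*, which Purkinje cells also express, was at 31.9 and 34.8 TPM in WT and 21.8 and 24.1 TPM in *Kdm3b*+/- (-0.52, adjusted p = 0.169). *Gata2* was at 3.68 and 6.76 TPM in WT and 3.02 and 2.38 TPM in *Kdm3b*+/- (-0.71, adjusted p = 0.222). These 2, named as the largest decreases, were the only ones of the 6 that were lower in both heterozygous mice than in both WT mice. Over all tested genes, 32% separated in this way. *Tfap2b* had the only fold change above 0 of the 6 (0.08, adjusted p = 0.858). *Neurog1* and *Prdm13*, factors of embryonic progenitors, were at 0 in all libraries.

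Among 15 further genes of molecular layer interneurons, all tested, none was called, 2 were lower and 1 higher at an unadjusted limma p below 0.05, and the median log2 fold change was -0.02 (-0.11 without WT mouse 1 and -0.085 without WT mouse 2). *Prkcd*, a protein kinase C, was at 25.2 and 18.8 TPM in WT and 11.7 and 12.2 TPM in *Kdm3b*+/- (-0.82, adjusted p = 0.105, and 0.0231 with the replicate block). *Kcnc1*, a potassium channel of fast-spiking neurons, was at 188 and 219 TPM in WT and 167 and 147 TPM in *Kdm3b*+/- (-0.37, adjusted p = 0.246). In the opposite direction, the neuropeptide gene *Sst* was at 13.7 and 9.28 TPM in WT and 24.4 and 17.3 TPM in *Kdm3b*+/- (0.81, adjusted p = 0.158), and the calcium channel gene *Cacna1e* overlapped between the groups (0.18, adjusted p = 0.700). *Sst* also passed the threshold with the replicate block (limma adjusted p = 0.0171). For *Prkcd* and *Sst* this was the only 1 of 13 alternative fits with all 4 libraries that passed, and 4.39% of all tested genes were called in it. With a library left out, the log2 fold change of *Sst* was 0.55 to 1.07. Of the 15 genes, 6 separated downwards between the genotypes, *Prkcd* and *Kcnc1* among them, and 3 upwards, with *Sst* among them. Over all tested genes, 32% separated downwards and 19.2% upwards. The part of other cell types in the values of these genes was not tested. *Sst* also belongs to the 14 genes of Golgi and Purkinje layer interneurons, of which 11 were tested and none was called (median -0.11), with 1 of them, *Sst*, at an unadjusted p below 0.05. The remaining extremes of that group were *Slc17a7* (-0.46, adjusted p = 0.323), *Klhl1* (-0.39, adjusted p = 0.397) and *Chrm2* (0.17, adjusted p = 0.684). *Slc17a7* encodes a vesicular glutamate transporter and is also in the granule cell list used here. It was at 465 and 548 TPM in WT and 280 and 479 TPM in *Kdm3b*+/-. In granule-cell-enriched tissue this level cannot be read as one of inhibitory interneurons, although the gene counts in the median of the group.

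The genes whose pattern over the 4 libraries was most like that of each of the 8 were found among 13651 others (13652 for the untested *Slc6a5* and *Sorcs3*) as those with the smallest root mean square difference of centred log2(TPM + 1). For *Gad1* these were *Slc2a4* (0.0359), *Zfp365* (0.0406) and *Frat2* (0.0413), and for *Kit* they were *Fmo5* (0.0210), *Mir374b* (0.0211) and *Washc2* (0.0218). *Gad2* was followed by *Xaf1* (0.0126), *Prox2* (0.0139) and *Bambi-ps1* (0.0168), and *Slc32a1* by *Sdf4* (0.00402), *Tdrp* (0.0107) and *Ei24* (0.0129). *Pvalb* had no match as near: *Npy* (0.150), *Adprhl1* (0.196) and the Purkinje cell gene *Pcp4* (0.201) came first. *Npy*, a neuropeptide gene, was at 10.7 and 3.32 TPM in WT and 6.02 and 5.997 TPM in *Kdm3b*+/-, with the same WT spread around the heterozygous mice. Nearest to *Slc6a5* were *Urm1* (0.0199), *Drc3* (0.0216) and *Gpr84* (0.0246), to *Lgi2* they were *Tmsb15l* (0.00539), *Sparcl1* (0.00870) and *Acadl* (0.02004), and to *Sorcs3* they were *Stard6* (0.0106), *Lias* (0.0197) and *Rab27b* (0.0199). Within the set, *Slc32a1* and *Sorcs3* were nearest to each other (0.0453), followed by *Gad1* and *Kit* (0.0923) and by *Slc6a5* and *Lgi2* (0.112). With 4 libraries, a small difference is shared by many genes and is given as a description.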

How the data were processed

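RNA of GCE tissue from 2 WT and 2 *Kdm3b*+/- mice was sequenced, 1 library per mouse, and groups were taken from the genotype labels. The authors trimmed the reads, aligned them with STAR and quantified genes with StringTie; versions, genome build, annotation and strandedness are not given in the sources used here. The deposited tables hold TPM, FPKM and mean coverage (signal, in reads per base) for 24532 NCBI Gene identifiers per library, with no counts. TPM was summed over rows that share an identifier. Symbols came from RefSeq (GRCm38.p6), which matched 24462 identifiers, and coordinates are those of the files; 90.5% of the start positions lay within 1 kb of that assembly's. Exons were taken from GENCODE on GRCm38.

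TPM was analysed as log2(TPM + 1) with limma 3.58.1 (lmFit, eBayes with trend) in R 4.3.3 over 13652 genes whose TPM averaged 1 or more, with Benjamini-Hochberg adjustment, and the script was tested on simulated data. The pseudocount of 1 understates fold changes of low genes. The authors deposited FPKM beside TPM, and it served as an alternative. As deposited, signal (coverage) gave the depth, and without counts no counting interval could be given. Single values were compared by exact permutation over the 4 libraries, whose smallest two-sided p is 0.333. Genes named beside the 8 were the 2 largest increases and decreases of each pathway list, called genes and the 3 nearest patterns; *Npy*, *Pcp4* and the *Slc17a7* and *Gabra6* levels were added after their values were seen. The 8 genes and all lists were chosen with earlier results of these data known. No gene list of the study was used. An item of the transport and breakdown list is not reported here, and its counts and median leave it out.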

Additional observations from a re-analysis of the deposited data

How the results depend on the processing

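The direction of *Gad1*, *Gad2*, *Kit* and *Lgi2* was kept in every alternative run. Over all genes, 2 were called without a filter on low values (2248 had an unadjusted limma p below 0.05), 39 with FPKM, 37 without the trend and 600 with the replicate block, and 21 to 188 with a library left out; the causes were not tested. Calls were 16 higher and 47 lower in the reported fit, 23 and 38 with median-ratio scaling, and 14 and 25 with FPKM. Deviations of same-numbered mice correlated at 0.121 (0.0229 after length and GC correction). These are different animals, so the number is not a pairing; the block made 1 of the 8 genes pass, *Gad1* (adjusted p = 0.0369). With a library left out, the median log2 fold change of the tested interneuron genes was -0.55 to -0.086 and 0 of them were called. *Slc32a1* turned to 0.010 with median-ratio scaling and 0.17 with length and GC correction, with or without the replicate block, and lay between -0.19 and 0.14 with a library left out. *Pvalb* was -0.18 with length and GC correction, with or without the block, and -0.92 to 0.92 with a library left out. *Slc32a1*, *Slc6a5* and *Sorcs3* had a coverage of 1.30 to 4.02 reads per base, and the part of depth in their spread was not tested.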

Other observations

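Among the marker lists that were read for other cell types, 4 genes were called. They were 2 of 12 tested astrocyte genes, 1 of 10 oligodendrocyte genes and 1 of 6 meningeal fibroblast genes. Over all tested genes 0.461% were called. *Aqp4*, the water channel of astrocytes, rose by 1.10 on the log2(TPM + 1) scale (limma adjusted p = 0.0329), at 59.2 and 82.3 TPM in WT and 150 and 152 TPM in *Kdm3b*+/-. *Etnppl*, also an astrocyte gene, fell by 1.17 (adjusted p = 0.0133), and *Mobp*, a myelin gene of oligodendrocytes, fell by 0.93 (adjusted p = 0.0133), from 925 and 893 TPM in WT to 471 and 482 TPM in *Kdm3b*+/-. *Fmod*, a proteoglycan gene of fibroblasts, fell by 2.10 (adjusted p = 0.00168), from 13.7 and 15.7 TPM to 2.53 and 2.76 TPM. The 8 meningeal fibroblast genes, *Fmod* included, summed to 67.0 and 60.9 TPM in WT and 37.6 and 40.9 TPM in *Kdm3b*+/-, without overlap. Of the 6 tested, 4 were lower and 1 was higher at an unadjusted limma p below 0.05 (median log2 fold change -0.52). The summed markers of oligodendrocytes (17984 and 16448 TPM in WT, 15192 and 18156 TPM in *Kdm3b*+/-), microglia (291 and 295, 307 and 327 TPM) and endothelial cells (314 and 274, 292 and 293 TPM) did not set WT mouse 1 apart as the Purkinje markers did.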
